A study of Mus musculus with 40 samples.

Results

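The genes described here encode voltage-gated cation channels and the wider potassium channel superfamily in the forebrain of mouse embryos that carry an added copy of Chd8. Members were chosen by a rule on symbols, set with earlier results of these data known. It took genes named Kcn plus a letter code and number (Kcnj13 left out by name), Scn, Cacn with a, b or g, and Hcn. The rule matched 135 genes of the RefSeq gene table, of which 123 were listed in at least 1 of the authors' deposited tables, among 17974 genes listed in all. These 123 were 81 potassium, 13 sodium, 25 calcium and 4 HCN (hyperpolarization-activated, cyclic nucleotide-gated) channel genes. The study compared polyadenylated RNA of male forebrain from wild-type mice (WT) and from mice of the genotype labelled Chd8 KI, at 2 embryonic stages, E14.5 and E18.5 (days after conception). Each genotype had 5 libraries at each stage, and the series title describes the KI allele as a duplication of Chd8. The labels give no strain, no insertion site and no promoter for the added copy. Nor do they say whether the 5 are from different litters, so p-values measure the spread between these libraries, which may be technical in part.

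Potassium channels let K+ leave the cell and set the resting potential, repolarize the action potential and space out firing. Voltage-gated sodium channels carry its upstroke, and voltage-gated calcium channels turn depolarization into calcium entry, which drives transmitter release and gene expression. HCN channels open on hyperpolarization and pass the pacemaker current. In the embryonic forebrain radial glia and newborn neurons rest on leak and inward rectifier potassium channels, and most channels of adult firing are acquired as neurons mature.

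The values are the authors' own results of comparing KI with WT, 1 table per stage, with a mean normalized count over all libraries of the stage, a log2 fold change and its standard error (SE). No value per library was available, so total counts per library and the overlap of the groups are unknown here. The headers do not name the numerator, so direction was read from Chd8, which the authors' deposited tables put higher by a log2 fold change of 0.64 (SE 0.031) in the younger and 0.51 (SE 0.038) in the older forebrain. A positive value is read as higher in KI. The forebrain markers Emx1, Emx2, Dlx1, Dlx2 and Lhx2 were present, at 1098 to 6087 mean normalized counts in the authors' deposited table for E14.5. Dlx1, a gene of ventral forebrain progenitors and interneurons, was called higher in KI at that stage, at 0.17 (SE 0.047, adjusted p = 0.0369) by the authors' deposited table, and Dlx2 stood at 0.15 (SE 0.049, adjusted p = 0.0835) there. In whole tissue, fewer cells of a type and less RNA per cell cannot be told apart.

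Most channel genes were detected at both stages. At E14.5 the authors' deposited table listed all 123 and gave an adjusted p for 96, and the 27 without one had mean normalized counts of at most 24.2. At E18.5 it listed 114 and gave an adjusted p for 103. The 9 genes listed at E14.5 alone, with mean normalized counts of at most 21.6 in the authors' deposited table, include the skeletal muscle calcium channel gene Cacna1s and the glial sodium channel gene Scn7a. The 12 members in neither table include Scn4a, the sodium channel of skeletal muscle, and Kcnj1, the renal outer medullary potassium channel. Kcne2, an auxiliary subunit known from choroid plexus and heart, went from a mean normalized count of 2.29 to 36.4, and its E18.5 log2 fold change had an SE of 1.36 and no p-value, in the authors' deposited tables. The 4 choroid plexus markers on the marker list summed to 28.7 mean normalized counts at E14.5 and 2875 at E18.5 in the authors' deposited tables, and none of them had an adjusted p at either stage. Most of the E18.5 sum was Ttr, at 2718 (SE of its log2 fold change 1.88, no p-value), by the authors' deposited table. The other markers had 25.1 to 100 there. The part of the choroid plexus markers in the Kcne2 value was not tested.

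Channel genes stood higher at E18.5 than at E14.5 relative to other genes. The tables were normalized separately and pool both genotypes, so this is a description of levels with no test. Over the 95 members with an adjusted p at both stages, the mean normalized count at E18.5 was a median 2.0 times that at E14.5, against 1.07 times over all 13106 such genes. The ratio was above 2 for 48 of the 95 members. Over all 114 members listed in both tables the median ratio was 2.11, against 1.11 over the 15415 genes listed in both. By group the median ratio over members with an adjusted p at both stages was 2.09 for potassium (61 genes), 2.1 for sodium (9), 1.92 for calcium (21) and 3.75 for HCN channel genes (4). Without transcript lengths, levels are compared here only within a gene.

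Single genes spread widely around these medians. Kcnj2, a strong inward rectifier, went from 56.8 to 421, a ratio of 7.41, and the HCN gene Hcn2 from 101 to 533, a ratio of 5.30, in mean normalized counts of the authors' deposited tables. Scn2a, the main sodium channel of young excitatory axons, went from 919 to 4009 (ratio 4.36), while Scn3a, the sodium channel best known from fetal cortex, went from 2718 to 4568.5 (ratio 1.68), by the authors' deposited tables. The M-current gene Kcnq5 had a ratio of 5.51, against 1.05 for Kcnq3 of the same family. Of the 95, all 10 whose ratio was under 1 were potassium channel genes. They include the 3 small-conductance calcium-activated genes Kcnn1, Kcnn2 and Kcnn3 (ratios 0.871, 0.741 and 0.941), and the lowest of the 95 ratios was that of Kcnj5, a G-protein-gated inward rectifier, at 0.681. Kcnk5, an alkaline-sensitive leak channel gene without an adjusted p at E18.5, went from 152 to 28.0 mean normalized counts in the authors' deposited tables, a ratio of 0.185.

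**Figure D1:**
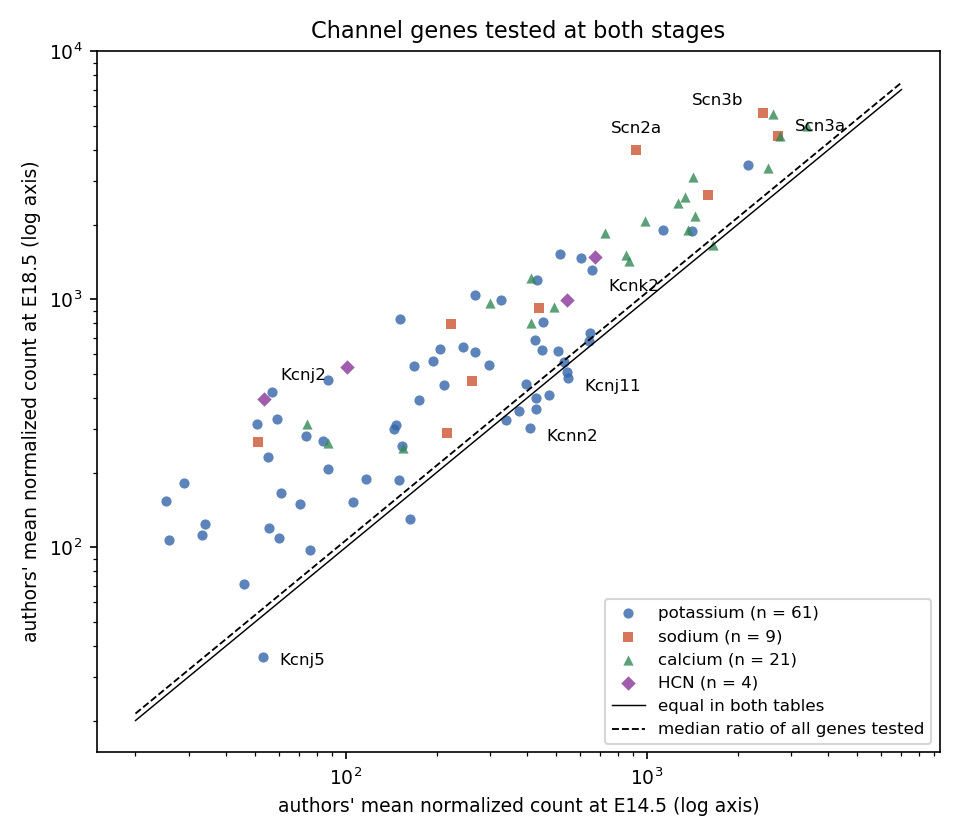
Authors' mean normalized count of each channel gene at E14.5 (x axis) and E18.5 (y axis), both on log axes, for the 95 members with an adjusted p at both stages; colour and shape give the group, the solid line marks equal values and the dashed line the median ratio of all genes (1.07). Most points lie above both lines, Kcnj2 among the farthest, and the points below the solid line are potassium channel genes such as Kcnj5 and Kcnn2.

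The E14.5 comparison asked which channel genes differ in the mid-gestation forebrain when Chd8 is duplicated. Kcnk2 was the member that passed: it fell by 15.8% in KI (95% interval −22.8% to −8.22%). Kcnk2 encodes TREK-1, a leak potassium channel opened by membrane stretch, warmth, acid inside the cell and volatile anaesthetics, and known for holding cells near the potassium equilibrium. The authors' deposited table gives Kcnk2 (NCBI gene ID 16526) a mean normalized count of 654 and a log2 fold change of −0.25 (SE 0.064, adjusted p = 0.0132, DESeq2 Wald test). That is 1 of 96 members tested, against 1.21% of all 13417 genes tested in either direction and 0.47% lower in KI, so the share of members called was near the background. The call ended with the Benjamini-Yekutieli adjustment (adjusted p = 0.133) and with a null centred and scaled to the Wald statistics of all genes (adjusted p = 0.186).

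Kcnk2 spans 189207930 to 189402782 on chromosome 1 (minus strand, GRCm38, the assembly of mm10). RefSeq (GRCm38.p6) gives it 4 promoter windows of 300 bases, and gene-level counts do not show which start was used. A pair is printed because the gene is the called member and its starts differ in base composition. The outermost window (chr1:189402224-189402523) has 6 CpG dinucleotides and 43.0% G+C, and an internal window (chr1:189343658-189343957) has 33 CpG and 74.7% G+C, against medians of 7 CpG and 52.7% over all 32851 windows. The start labelled outermost is that of the outermost of the 4 windows. That window lies wholly inside the annotated span, whose 5′ end at 189402782 is outside it. Capitals mark CpG, and both are printed 5′ to 3′ on the gene's strand.
Kcnk2 outermost start: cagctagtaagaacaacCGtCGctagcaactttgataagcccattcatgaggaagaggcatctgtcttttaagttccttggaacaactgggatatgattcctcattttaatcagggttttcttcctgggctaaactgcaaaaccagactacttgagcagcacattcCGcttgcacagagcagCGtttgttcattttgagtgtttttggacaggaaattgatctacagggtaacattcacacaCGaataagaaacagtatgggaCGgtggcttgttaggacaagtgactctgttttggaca
Kcnk2 internal CpG-rich start: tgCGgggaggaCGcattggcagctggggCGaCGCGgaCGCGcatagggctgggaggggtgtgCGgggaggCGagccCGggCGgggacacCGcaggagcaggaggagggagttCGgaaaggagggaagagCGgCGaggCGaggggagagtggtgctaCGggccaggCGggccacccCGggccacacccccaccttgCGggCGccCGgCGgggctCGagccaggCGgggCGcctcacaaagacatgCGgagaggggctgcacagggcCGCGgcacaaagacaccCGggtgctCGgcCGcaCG
The genes on either side were Kctd3, at −0.00 (SE 0.042, adjusted p = 0.993), and Cenpf, a kinetochore gene, at 0.04 (SE 0.049, adjusted p = 0.834), on the log2 fold change scale of the authors' deposited table at E14.5.

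Other leak channel genes of the Kcnk family had wider errors, though the SE of Kcnk10 was close to that of Kcnk2. Of the 6 others with an adjusted p at E14.5, 4 were below 0, and the median of the 6 was −0.13 on the log2 fold change scale. Kcnk10, which encodes TREK-2 and is the closest relative of Kcnk2, stood at −0.10 (SE 0.065, adjusted p = 0.596) by the authors' deposited table. The TASK genes Kcnk3 and Kcnk9, which encode acid-sensitive leak channels, stood at −0.17 (SE 0.155) and 0.22 (SE 0.262), and the TWIK gene Kcnk1 at −0.17 (SE 0.151), by the authors' deposited table. Kcnk5 was above 0, at 0.19 (SE 0.116) there. None of these genes passed, and the SEs of Kcnk1, Kcnk3 and Kcnk9 were more than 2 times that of Kcnk2. At E18.5 Kcnk2 stood at −0.07 (SE 0.050, 95% interval −0.17 to 0.03) by the authors' deposited table, where its mean normalized count was 1310.5. The E18.5 value minus the E14.5 value was 0.18 (95% interval 0.02 to 0.34) and missed the threshold after adjustment (adjusted p = 0.999), so a stage-specific effect was not shown.

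Inward rectifier genes leaned below 0 at E14.5, with 8 of 10 tested below, against 50.2% of all genes tested. Their median log2 fold change was −0.08, at a median SE of 0.17 and a median of 72.0 mean normalized counts, and none passed. Kcnj10, the glial channel that buffers extracellular potassium, had the second-lowest unadjusted p of all members: the authors' deposited table gives −0.21 (SE 0.072, p = 0.00333, adjusted p = 0.122). Its neighbour on chromosome 1, the G-protein-gated channel gene Kcnj9, stood at −0.12 (SE 0.154) by the authors' deposited table. The 6 radial glia markers on the marker list had a median of −0.01 at E14.5, with 4 of 6 below 0, and both tested astrocyte markers were below 0 (median −0.05), with none called. Their part in the Kcnj10 value was not tested. Kcnj11 encodes the pore of the ATP-sensitive potassium channel, which couples metabolism to excitability. By the authors' deposited tables it stood at −0.14 (SE 0.069, adjusted p = 0.376) in the younger forebrain and at 0.18 (SE 0.072, adjusted p = 0.695) in the older. Abcc8, which encodes the sulfonylurea receptor subunit of the same channel and lies next to Kcnj11 on chromosome 7, stood at −0.21 (SE 0.093, adjusted p = 0.314) and 0.07 (SE 0.112) by the authors' deposited tables. Kcnj8, the pore gene of the vascular form of that channel, stood at −0.07 (SE 0.149) and −0.01 (SE 0.126) there, and the 5 mural cell markers had a median of −0.05 at E14.5 and 0.06 at E18.5.

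Voltage-gated potassium channel genes, which shape and end the action potential, varied by subfamily at E14.5 without a call. Kcnd2 and Kcnd3, A-type channel genes of the Kv4 family, stood apart from each other. Kcnd2, which encodes the main dendritic A-current subunit, was at −0.20 (SE 0.071, adjusted p = 0.131) and Kcnd3 at 0.09 (SE 0.044, adjusted p = 0.437) by the authors' deposited table. Among the fast-spiking Kv3 genes, Kcnc1 was at 0.15 (SE 0.055, adjusted p = 0.187), and 3 of the 4 were above 0. Of the 5 Kv1 genes tested, 4 were below 0, Kcna4 lowest at −0.30 (SE 0.190, adjusted p = 0.569) and the episodic ataxia gene Kcna1 at −0.14 (SE 0.079, adjusted p = 0.503), by the authors' deposited table. Kcna2 was at −0.09 (SE 0.10) and the Kv2 gene Kcnb2, a delayed rectifier, at −0.09 (SE 0.117), by the authors' deposited table. The 4 silent subunit genes tested (Kcnf1, Kcng1, Kcns2 and Kcnv1), which modify Kv2 channels and do not conduct alone, were all below 0, Kcnv1 lowest at −0.27 (SE 0.120, adjusted p = 0.322) by the authors' deposited table. All 4 Kv7 genes tested, of the M-current that restrains firing, lay between 0.03 and 0.04, Kcnq3 at 0.03 (SE 0.086) by the authors' deposited table.

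Among the remaining potassium channel genes at E14.5, the highest log2 fold changes among those with 50 or more mean normalized counts were those of Kcnab3, a cytoplasmic beta subunit, at 0.25 (SE 0.126, adjusted p = 0.428) and Kcnh4, an ELK channel, at 0.24 (SE 0.112, adjusted p = 0.364), by the authors' deposited table. The lowest was that of Kcnab1, another beta subunit gene, at −0.37 (SE 0.222, adjusted p = 0.534), with 59.2 mean normalized counts by the authors' deposited table. The big-conductance channel gene Kcnma1 was at −0.12 (SE 0.085) and its neuronal partner Kcnmb4 at −0.18 (SE 0.101, adjusted p = 0.497), by the authors' deposited table. The sodium-activated channel genes Kcnt1 and Kcnt2 were at 0.12 (SE 0.128) and 0.24 (SE 0.154) by the authors' deposited table.

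Sodium channel genes split into alpha subunits, which form the pore, and beta subunits, which adjust gating and adhesion. At E14.5 none of the alpha genes passed. The authors' deposited table gives Scn3a 0.00 (SE 0.044, 95% interval −0.09 to 0.09), Scn2a −0.05 (SE 0.070, 95% interval −0.19 to 0.09), Scn8a 0.08 (SE 0.062) and the Dravet syndrome gene Scn1a −0.10 (SE 0.079). Of the beta genes, Scn2b stood at 0.17 (SE 0.114, adjusted p = 0.596) and Scn3b at 0.05 (SE 0.041, adjusted p = 0.738) by the authors' deposited table for E14.5. At E18.5 Scn2b stood at 0.16 (SE 0.080, adjusted p = 0.846) and Scn3b at 0.07 (SE 0.046) by the authors' deposited table.

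Calcium channel genes had the lowest median SE of the 4 groups at E14.5, 0.067, and none of the 21 tested passed. The alpha1 genes, which encode the pore, lay between −0.16 and 0.12. Cacna1d, an L-type channel active at low voltages, was lowest at −0.16 (SE 0.086, adjusted p = 0.463) and the presynaptic N-type gene Cacna1b highest at 0.12 (SE 0.056, adjusted p = 0.323), by the authors' deposited table. Cacna1c, the Timothy syndrome gene, stood at −0.08 (SE 0.063), Cacna1a, the P/Q-type gene of mature synapses, at −0.03 (SE 0.074), and Cacna1e, the R-type gene, at −0.08 (SE 0.118), by the authors' deposited table. The T-type genes Cacna1g, Cacna1h and Cacna1i, whose channels open near rest, were at 0.09 (SE 0.054), 0.02 (SE 0.052) and −0.09 (SE 0.102) by the authors' deposited table. Of the auxiliary genes, Cacnb2 was highest at 0.27 (SE 0.119, adjusted p = 0.314) and Cacng5 lowest at −0.27 (SE 0.148, adjusted p = 0.464), by the authors' deposited table. Cacnb3, with a higher mean normalized count than either, stood at 0.03 (SE 0.039) there. Gamma genes such as Cacng5 mostly encode partners of AMPA receptors rather than of calcium channels. Cacna2d2, a trafficking subunit, was above 0 at both stages, at 0.12 (SE 0.060, adjusted p = 0.427) and 0.16 (SE 0.061, adjusted p = 0.636) by the authors' deposited tables.

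The 4 HCN genes did not pass at either stage. At E14.5 the authors' deposited table gives Hcn2 −0.14 (SE 0.149), Hcn3 0.07 (SE 0.070) and Hcn4 0.12 (SE 0.071, adjusted p = 0.525). At E18.5 it gives Hcn2 −0.01 (SE 0.075), Hcn3 0.11 (SE 0.067, adjusted p = 0.969) and Hcn4 0.03 (SE 0.056) by the authors' deposited table. Hcn3 and Hcn4 lay above 0 and Hcn2 below 0 at both stages, each by less than 2 SE.

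**Figure D2:**
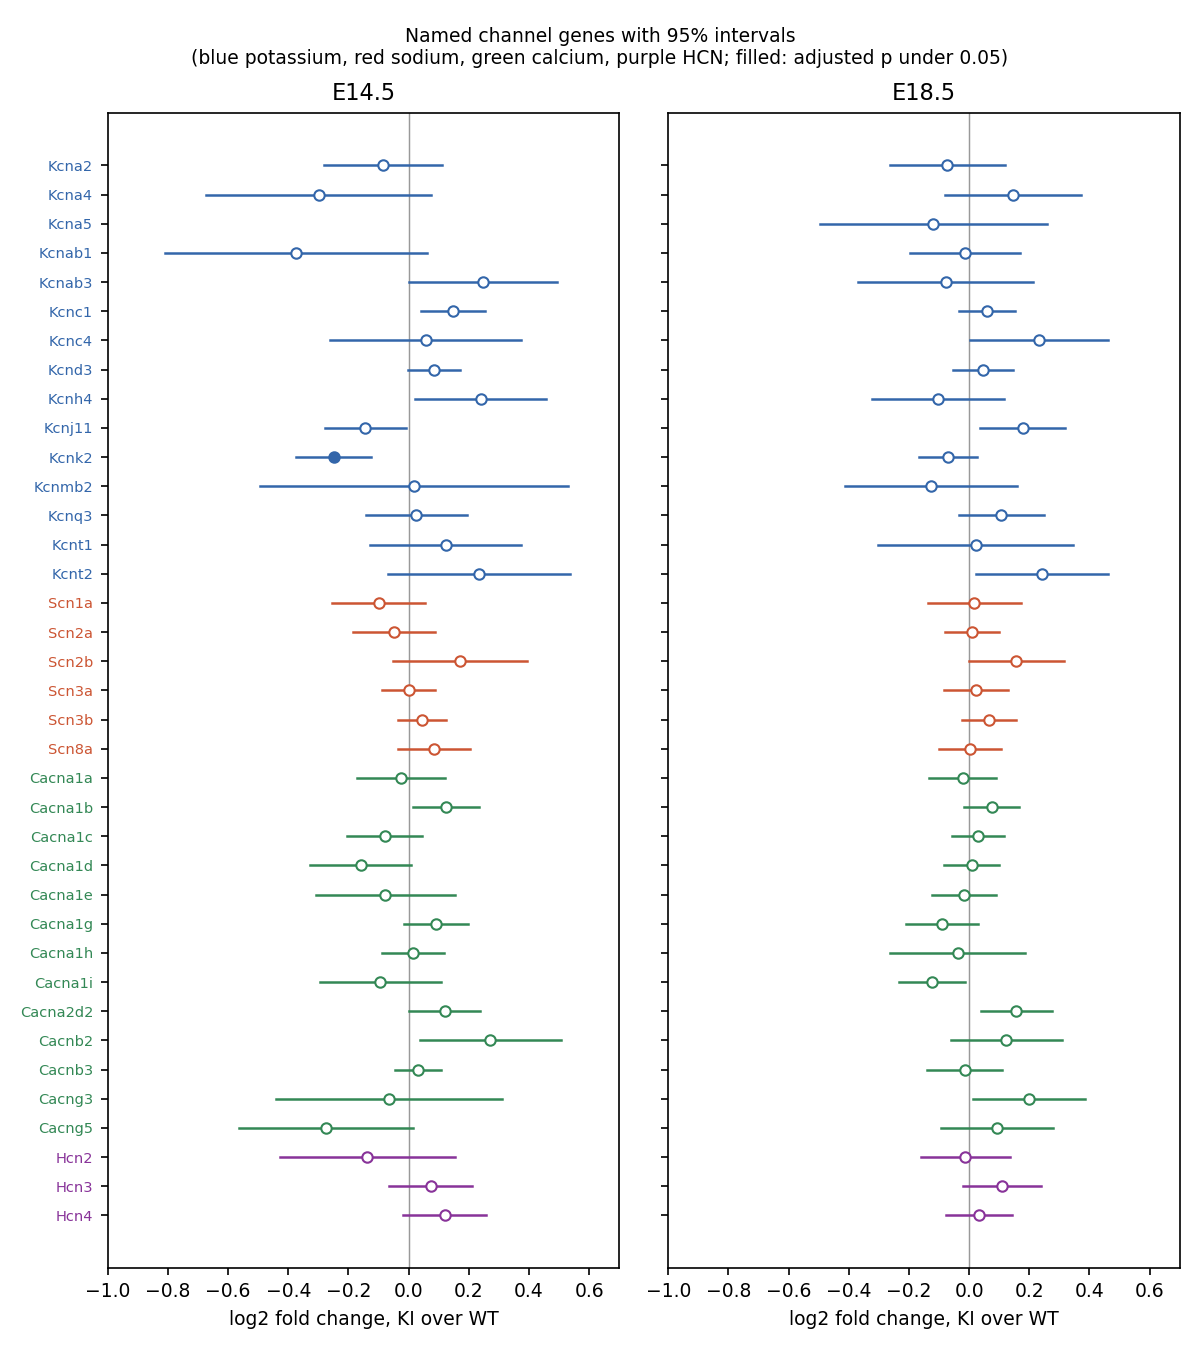
Log2 fold change of KI over WT (x axis) with its 95% interval for 37 of the 42 channel genes of the naming rule (rows), at E14.5 (left) and E18.5 (right), coloured by group. The filled point, Kcnk2 at E14.5, is the one with an adjusted p under 0.05, and open points did not pass; Kcna5 had no adjusted p at E14.5 and no point there.

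At E18.5 the comparison was repeated shortly before birth, and none of the 103 members tested passed the DESeq2 Wald test after adjustment, against 0.0662% of all 13601 genes tested in either direction and 0.0221% lower in KI. The lowest adjusted p of any member was 0.625, that of Kcna3, a Kv1 gene best known from lymphocytes, at 0.23 (SE 0.085) by the authors' deposited table. At an unadjusted p under 0.05 there were 8 members, against 5.96% of all genes (3.13% higher and 2.82% lower). Of these, 7 were higher, among them Kcna3, Cacna2d2, Kcnj11, Kcnt2, Cacng3 and Kcnc4, and 1 was lower, Cacna1i, the T-type gene of thalamus and striatum, at −0.12 (SE 0.056, adjusted p = 0.797) by the authors' deposited table. The highest log2 fold changes were those of Kcnt2 at 0.24 (SE 0.112) and Kcnc4, another Kv3 gene, at 0.23 (SE 0.117), by the authors' deposited table. Of potassium channel genes with 50 or more mean normalized counts, the lowest were Kcnmb2, a big-conductance channel partner, at −0.13 (SE 0.146) and Kcna5 at −0.12 (SE 0.192), by the authors' deposited table. Scn2a and Cacna1c were near 0 with narrow errors, at 0.01 (SE 0.045) and 0.03 (SE 0.044), by the authors' deposited table.

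The groups are described by counts and medians, without a test. At E14.5 the median log2 fold change was −0.05 over 62 potassium genes (34 below 0), 0.00 over 9 sodium genes (4 below 0), −0.02 over 21 calcium genes (12 below 0) and 0.04 over 4 HCN genes (1 below 0). Over genes with 100 or more mean normalized counts the median was −0.01 for potassium and 0.07 for HCN genes. The mean weighted by precision was −0.02 for potassium and 0.07 for HCN genes. The median over all genes tested was −0.00, and 50.2% of them lay below 0, against 53.1% of the 96 members. At an unadjusted p under 0.05 there were 13 of 96 members, 7 higher and 6 lower, against 11.5% of all genes, 6.26% higher and 5.28% lower. All but 1 of the 6 lower ones were potassium channel genes (Kcnk2, Kcnj10, Kcnd2, Kcnv1 and Kcnj11). The 7 higher ones included Kcnc1, Kcnh4 and Kcnab3, with Cacnb2, Cacna1b and Cacna2d2.

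At E18.5 the medians were 0.02 over 69 potassium genes (28 below 0), 0.02 over 9 sodium genes (0 below 0), 0.01 over 21 calcium genes (9 below 0) and 0.01 over 4 HCN genes (2 below 0). Members below 0 made up 37.9%, against 51.2% of all genes tested. All 9 sodium genes lay above 0. Of the 7 pan-neuronal markers on the marker list, 6 were below 0 at E14.5 (median −0.03) and all 7 above 0 at E18.5 (median 0.03), with none called at either stage. The medians of the astrocyte, oligodendrocyte lineage and radial glia lists lay below 0 at E18.5, also with none called. Below 0 were 3 of 3 tested astrocyte markers (median −0.17), 4 of 4 oligodendrocyte lineage markers (median −0.19) and 4 of 6 radial glia markers (median −0.06). All 3 tested microglia markers were above 0 at E18.5 (median 0.03, none called). The part of these lists in the lean of the channel genes was not tested.

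**Figure D3:**
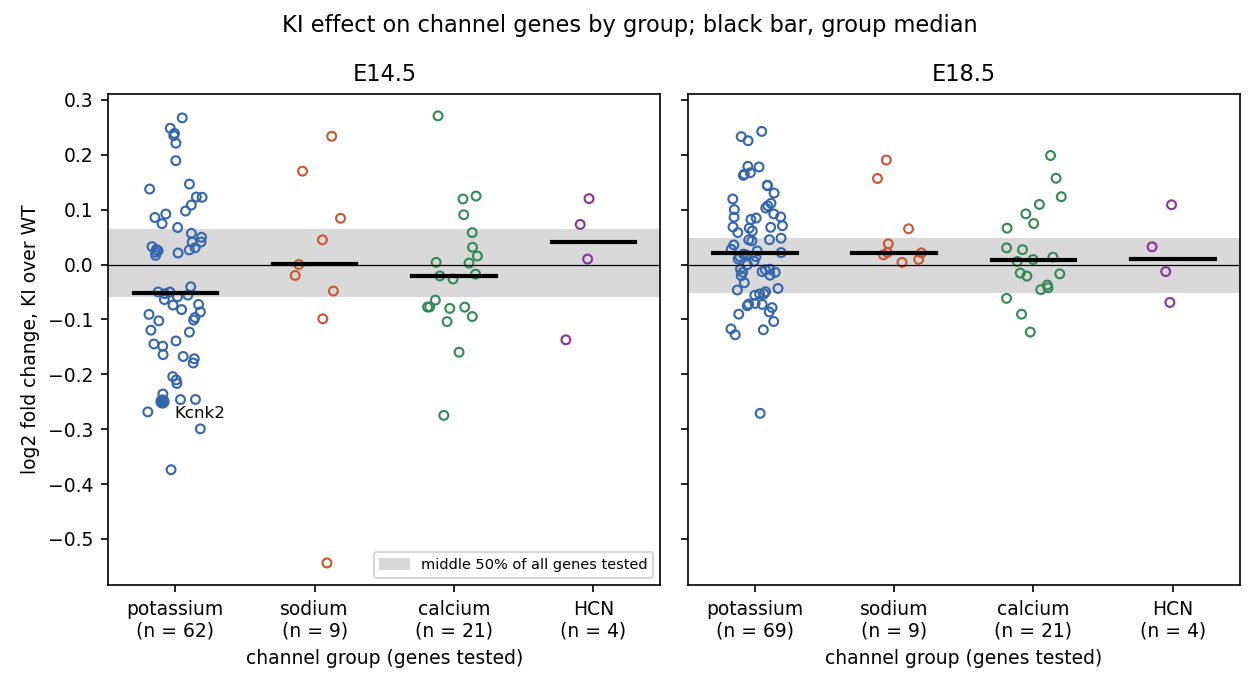
Log2 fold change of KI over WT (y axis) for every channel gene tested, by group (x axis), at E14.5 (left) and E18.5 (right); black bars are group medians, the grey band is the middle 50% of all genes tested and the filled point is Kcnk2. The band shows the spread of single genes and is no test of a group; group medians run from −0.05 to 0.04 at E14.5 and from 0.01 to 0.02 at E18.5.

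Precision limits what these comparisons could show. The smallest absolute Wald statistic called was 3.43 at E14.5 and 4.21 at E18.5. At the median SE of each group, a log2 change of 0.40 was needed to pass at E14.5 for potassium genes, 0.27 for sodium, 0.23 for calcium and 0.38 for HCN genes. At E18.5 the same quantity was 0.41, 0.31, 0.24 and 0.30.

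The question of whether the KI effect on channel genes depended on stage was tested as the difference of both log2 fold changes. None of the 95 members tested at both stages passed by the normal test with Benjamini-Hochberg adjustment, and neither did any of the 13106 genes (0%). At an unadjusted p under 0.05 there were 11 of 95 members, 9 of them higher at E18.5, against 4.52% of all genes and 2.33% in that direction. The lowest p was that of Kcnj11, whose E18.5 value minus its E14.5 value was 0.32 (SE 0.099, 95% interval 0.13 to 0.52, adjusted p = 0.689). Cacna1g ran the other way, at −0.18 (SE 0.082, adjusted p = 0.999), as did Kcnh4, at −0.34 (SE 0.158, adjusted p = 0.999). Members at that level also included Kcnk2, Kcna1, Kcna4, Kcnd2, Kcnv1, Kcnmb4 and Cacng5.

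The difference was above 0 for 64 of the 95 members, against 49.6% of all genes. Members below 0 at E14.5 and above 0 at E18.5 numbered 28, those below 0 at both stages 23, above 0 at both 31, and above then below 13. The first class held 20.7% of all genes and 29.5% of the members, and all 4 silent subunit genes tested at both stages were in it. Across the 95 members the log2 fold changes of both stages had a Pearson correlation of 0.13, against 0.21 across all genes, and points of a stage share their libraries.

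**Figure D4:**
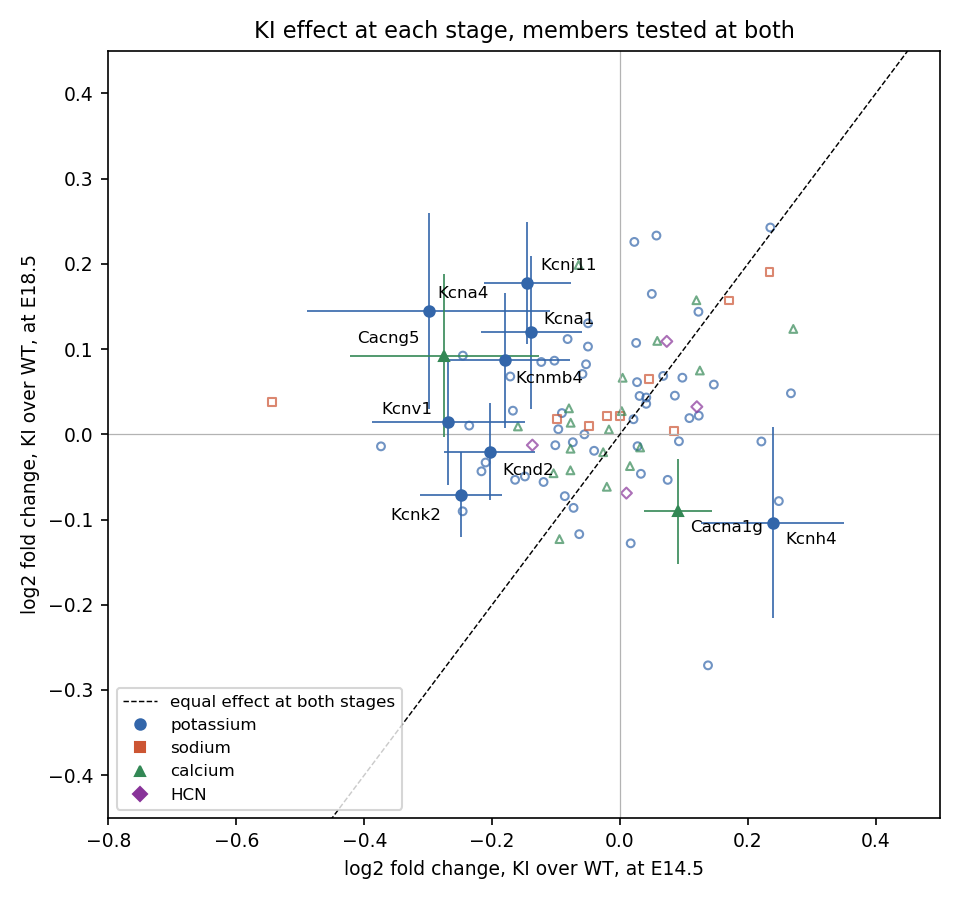
Log2 fold change of KI over WT at E14.5 (x axis) against that at E18.5 (y axis) for the 95 channel genes tested at both stages, by group; named points with bars of 1 SE each way are 10 of the 11 whose difference between stages had an unadjusted p under 0.05. Of the 10 named, 8 lie above the dashed line of equal effect, and none passed after adjustment.

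Some channel genes lie side by side in the genome, and 55 of the 135 fell into 23 sets with gaps of at most 500 kb. On chromosome 2, Scn3a and Scn2a lie within 65457118 to 65767447, and Scn1a, Scn9a and Scn7a within 66270781 to 66784910 (GRCm38). The first 4 of these stood between −0.10 and 0.00 at E14.5 and between 0.01 and 0.02 at E18.5 on the log2 fold change scale. On chromosome 6, Kcna5, Kcna1 and Kcna6 within 126532551 to 126740834 stood at −0.23, −0.14 and −0.05 at E14.5, and at −0.12, 0.12 and 0.08 at E18.5, in the authors' deposited tables; Kcna5 had no adjusted p at E14.5. On chromosome 9, Scn2b and Scn4b within 45117876 to 45154155 were above 0 at both stages, at 0.17 and 0.11, then 0.16 and 0.19, in the authors' deposited tables, with Scn4b at mean normalized counts of only 3.71 and 15.1. The log2 fold change showed little relation to the genomic span of the gene: Spearman's rho was 0.07 over the 96 members tested at E14.5 and 0.01 over the 103 at E18.5.

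Promoter windows of RefSeq matched 98 of the 135 members, 134 windows in all. Median CpG numbers per 300-base window were 9 for potassium (91 windows), 7 for sodium (12), 15 for calcium (29) and 28.5 for HCN genes (2), against 7 over all windows. The 5′ part of the binding motif of REST, a repressor of neuronal genes, was searched as TTCAGCACC on both strands. It was in 1 of the 134 windows, that of the ERG-type gene Kcnh6, and in 0.371% of all windows. The TATA motif TATAAA, on both strands, was in 6 of the 134 windows (4.48%) and in 13.6% of all windows, and Scn2a and Cacna1d were among the 6.

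Genes whose products anchor, modify or work beside these channels were taken from a list of 34. All 34 were tested at both stages and none was called at either. At E14.5, 20 of 34 were below 0, the median log2 fold change being −0.03, and at E18.5, 12 of 34 with a median of 0.02. Ank3, which holds sodium channels at the axon initial segment, was at 0.00 (SE 0.050), and Dpp10, a partner of Kv4 channels, at −0.15 (SE 0.084, adjusted p = 0.503), by the authors' deposited table at E14.5. Slc12a5, the chloride extruder that makes GABA inhibitory, was at 0.02 (SE 0.065) at E14.5 and 0.11 (SE 0.050, adjusted p = 0.805) at E18.5 in the authors' deposited tables. Rest, which encodes REST, was at 0.05 (SE 0.071) and −0.12 (SE 0.114) by the authors' deposited tables. Of the other cell types on the marker list, 4 of 4 erythroid genes were above 0 at E14.5, with 2 called higher and a median of 0.50. Both tested meningeal markers were above 0 at E14.5 (median 0.51, none called), and no meningeal marker had an adjusted p at E18.5. Their counts at E18.5 were not all low. Col1a2 had a mean normalized count of 407 (SE 1.15) and Col1a1 of 252 (SE 1.44), both without any p-value, in the authors' deposited table. Of the 4 oligodendrocyte lineage markers, 3 had an unadjusted p under 0.05 at E18.5, all below 0, and none was called. Endothelial, mural, microglial and muscle markers had no called gene among those tested at either stage. Muscle markers summed to a mean normalized count of 62.8 at E14.5 and 142 at E18.5, and which channel transcripts came from these cell types was not tested.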

How the data were processed

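RNA-seq of male embryonic forebrain was used, 5 WT and 5 KI libraries at each of 2 stages. Build mm10 and the tools DESeq2 1.26.0, featureCounts 2.0.0, HISAT2 2.1.0 and Trimmomatic 0.39 are named, per the submitters' processing notes. For each gene the authors deposited, per the file headers, a mean normalized count (a signal averaged over all libraries of a stage), a log2 fold change with its SE, a Wald score, and p-values with and without adjustment. A gene was called changed at a deposited adjusted p under 0.05, with no fold threshold. The tables hold 0 columns of per-sample values, so the depth per library is unknown and precision is that of the deposited SE.

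The row names are NCBI gene IDs. Symbols and positions came from the RefSeq table of GRCm38.p6, which matched 17192 of 17940 IDs at E14.5 and 15064 of 15449 at E18.5. Intervals of 95% are the log2 fold change with normal limits. The stage difference used both SEs, a normal test and Benjamini-Hochberg adjustment over all 13106 genes tested at both stages. It was run on simulated data drawn as normal values at the deposited SEs, with planted differences in 200 genes. That could not check the normal assumption. The planted differences were larger than that of Kcnj11, so the simulation does not show power for differences of the size seen. Gene groups are described by counts and medians, without a list test. Members, lists and rules were chosen with earlier results of these data known.

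The named-gene rule took called members, and the 2 highest and 2 lowest per group and stage among those with 50 or more mean normalized counts. It also took the 3 with the highest mean normalized count at E14.5 per group, the 5 lowest p-values for the stage difference and a list of disease genes, making 42 in all. Some of these genes are not reported here. Other members named were chosen after their values were seen. Alternatives were the Benjamini-Yekutieli adjustment, an empirical null, no filter on low counts or a minimum of 100 mean normalized counts, centring, pore-forming genes alone and a weighted mean. ChIP-seq and ATAC-seq libraries were not analysed here. Computation used Python 3.11.15, pandas 2.3.3, NumPy 2.4.6 and SciPy 1.17.1.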

Additional observations from a re-analysis of the deposited data

How the results depend on the processing

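The number of members called at E14.5 was 1 as deposited and 0 with the Benjamini-Yekutieli adjustment and with the empirical null, where Kcnk2 had an adjusted p of 0.133 and 0.186; it was 1 under both other filters. Over all genes the count at E14.5 was 162, then 56 with Benjamini-Yekutieli and 31 with the empirical null. At E18.5 it was 9, then 4 with Benjamini-Yekutieli, 14 with a minimum of 100 mean normalized counts and 19 with the empirical null, and 0 members were called under any of these. The empirical scale of the Wald statistics was 1.22 at E14.5 and 0.949 at E18.5. No member had a called stage difference under the alternatives run. Of 40 group medians recomputed, some as weighted means, 3 changed sign, in the sodium and calcium groups. At E14.5 the range was −0.05 to −0.01 for potassium, −0.01 to 0.02 for sodium, −0.05 to 0.00 for calcium and 0.04 to 0.07 for HCN genes, the potassium median being nearest 0 with a minimum of 100 mean normalized counts. At E18.5 it was 0.02 to 0.04 for potassium and for sodium, −0.02 to 0.01 for calcium and 0.01 to 0.02 for HCN genes. Of 323 calls of named genes recomputed, 2 changed side, both of Kcnk2. No paired analysis was possible because the deposited tables give no values per library, and for the same reason leaving out single libraries was not run.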
